A study of Homo sapiens with 6 samples.

Results

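Tight junction transcripts were measured in 3 human lung cancer cell lines. The genes described are 9 of the 26485 symbols in the deposited tables and were taken by name, with the TPM of all lines of one symbol added. They comprise 6 claudins (CLDN1, CLDN2, CLDN3, CLDN4, CLDN7 and CLDN12), occludin (OCLN) and the scaffold genes TJP1 and TJP3. The lines were PC9-AMG, PC9-BrM4 and PC9, each labelled as cultured conventionally, with 2 libraries per line. PC9 is an established lung adenocarcinoma line that carries a mutant EGFR. PC9-BrM4 is known from other work as a brain-metastatic derivative, which the labels do not state, and the labels do not explain the name AMG. They also do not say whether a subline is 1 clone or whether replicates were separate cultures, so p-values below measure only the spread between these libraries, which may be technical.

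Tight junctions seal the space between neighbouring epithelial cells near their apical surface. Claudins span the membrane and set which ions pass between cells, with some members sealing the junction and others forming pores. Occludin is a further membrane component, and the zonula occludens proteins encoded by TJP genes bind claudin tails inside the cell and tie them to actin. In lung epithelium claudins are known for keeping the airspace barrier, and in carcinomas CLDN3, CLDN4 and CLDN7 are widely used as epithelial surface markers.

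The promoters of 5 members are shown because the transcripts of CLDN1, CLDN3, CLDN4 and OCLN differed most between PC9-AMG and PC9, whereas that of CLDN12 did not pass the test there. Each run covers 250 bases before and 50 after a RefSeq transcription start (GRCh38.p14), read 5′ to 3′ on the gene's strand. The start nearest to the gene's start in the deposited tables was used. It lay 0 bases from that start for CLDN1 and CLDN3, 127 for CLDN12, 133 for CLDN4 and 255 for OCLN. The OCLN window therefore lies inside the deposited gene model. Capitals mark matches to the letters CAGGTG (an E-box of the kind bound by Snail and ZEB repressors), TGANTCA (AP-1), GGGCGG (a GC box) and AACCGGTT (grainyhead), each searched on both strands, and of the TATA box letters TATAAA, searched on the gene's strand. The CLDN4 promoter lies at chr7:73830746-73831045 on the plus strand and that of CLDN3 at chr7:73770221-73770520 on the minus strand. That of CLDN1 lies at chr3:190322397-190322696 on the minus strand. Those of OCLN (chr5:69492297-69492596) and CLDN12 (chr7:90403211-90403510) lie on the plus strand.
CLDN4: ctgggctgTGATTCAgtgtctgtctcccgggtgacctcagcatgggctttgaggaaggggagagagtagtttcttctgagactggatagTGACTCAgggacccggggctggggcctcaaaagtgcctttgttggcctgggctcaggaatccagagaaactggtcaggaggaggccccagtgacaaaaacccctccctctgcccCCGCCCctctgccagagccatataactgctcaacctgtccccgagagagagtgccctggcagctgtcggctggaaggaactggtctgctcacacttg
CLDN3: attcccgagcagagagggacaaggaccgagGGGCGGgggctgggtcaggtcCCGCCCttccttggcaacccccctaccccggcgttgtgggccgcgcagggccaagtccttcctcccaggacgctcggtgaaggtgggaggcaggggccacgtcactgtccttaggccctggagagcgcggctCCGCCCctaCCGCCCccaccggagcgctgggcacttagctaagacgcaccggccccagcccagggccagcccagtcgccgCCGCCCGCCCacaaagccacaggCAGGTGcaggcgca
CLDN1: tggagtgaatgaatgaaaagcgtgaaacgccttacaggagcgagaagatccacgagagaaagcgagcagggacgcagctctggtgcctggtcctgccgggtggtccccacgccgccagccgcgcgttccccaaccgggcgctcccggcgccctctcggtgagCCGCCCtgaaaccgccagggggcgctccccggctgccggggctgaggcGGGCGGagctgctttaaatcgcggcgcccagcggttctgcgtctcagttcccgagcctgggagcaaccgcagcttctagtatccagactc
OCLN: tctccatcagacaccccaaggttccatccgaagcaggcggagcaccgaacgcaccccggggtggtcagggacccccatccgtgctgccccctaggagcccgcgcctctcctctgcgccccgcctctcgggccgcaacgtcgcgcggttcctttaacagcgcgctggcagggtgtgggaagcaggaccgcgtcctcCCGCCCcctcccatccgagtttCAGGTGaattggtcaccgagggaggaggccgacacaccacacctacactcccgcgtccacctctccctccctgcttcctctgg
CLDN12: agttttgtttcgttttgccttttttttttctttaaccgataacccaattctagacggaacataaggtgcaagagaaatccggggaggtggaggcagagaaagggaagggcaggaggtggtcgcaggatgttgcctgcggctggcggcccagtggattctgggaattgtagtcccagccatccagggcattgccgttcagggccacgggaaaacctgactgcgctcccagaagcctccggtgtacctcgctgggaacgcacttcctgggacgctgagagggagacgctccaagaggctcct

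The 5 promoters differed in the letters they held. CLDN4 had 2 matches to the AP-1 letters, which 7.71% of 35116 promoters of the same length hold at least once, and 1 GC box. CLDN3 had 6 GC boxes, of which 2 overlap each other, and 1 E-box, at a GC content of 72.0%. CLDN1 had 2 GC boxes, and OCLN had 1 GC box and 1 E-box. GC boxes occur in 15786 of all promoters searched and this E-box in 20.6%. CLDN12 had no match to any of the 5 motifs, and neither did CLDN7, whose transcript was higher in PC9-AMG than in PC9. TJP1, also higher there, had 3 GC boxes and 1 E-box, while TJP3, which did not pass there, had 1 GC box. The grainyhead and TATA letters were absent from each of the 9 members' windows (0.134% and 7.33% of all promoters hold them). A match is a run of letters and was not tested for binding.

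The libraries rested on 2.66 to 4.39 gigabases of aligned sequence, and 13455 to 13764 symbols reached 1 TPM, the unit in which transcripts are scaled for length and to the same total in each library. Epithelial markers were present, as 8 of 8 (EPCAM, CDH1, 4 keratins, ESRP1 and MUC1) were at or above 1 TPM. Their summed level was 14120 to 14600 TPM in PC9-AMG, 9552 to 9683 TPM in PC9-BrM4 and 12330 to 12410 TPM in PC9. The 4 keratins made up most of that sum, and not all markers followed it. Against PC9, 4 of the 8 were higher and 2 lower in PC9-AMG, where 27.8% and 27.7% of all tested genes were. In PC9-BrM4 1 was higher and 6 lower, where 23.4% and 23.1% were. MUC1 and KRT19 were lower in PC9-AMG (log2 -0.86 and -0.15), and CDH1 was higher in PC9-BrM4 (log2 0.19). Of the lung lineage markers NKX2-1, NAPSA, SFTPB, SFTPC and SCGB1A1, 0 of 5 reached 1 TPM, so these markers do not identify the lung origin of the cells. Of 6 fibroblast markers 1 reached 1 TPM, and the list summed to 14.6 to 15.0 TPM in PC9-AMG, 3.68 to 4.45 TPM in PC9-BrM4 and 4.78 to 5.05 TPM in PC9. Of 6 endothelial markers 2 did, with sums of 5.24 to 6.07 TPM, 2.30 to 2.32 TPM and 4.19 to 4.49 TPM in the same order of lines. Of 5 leukocyte and 5 astrocyte markers 2 each did, and those sums lay between 17.5 and 50.4 TPM. The part of these markers in the results was not tested. COL1A2, DCN, LUM, TIE1, CLDN5 and AIF1 were listed at 0 in all 6 libraries, whereas other markers of those lists were not. COL1A1 was higher in PC9-AMG, at a mean of 14.6 TPM against 4.89 TPM in PC9 (log2 1.405, limma adjusted p = 3.84e-05), and so were CSF1R, at 4.03 against 0.627 TPM (log2 1.63), and CDH5, at 3.68 against 2.24 TPM (log2 0.53). PECAM1, the other endothelial marker tested, did not pass there, at 1.465 against 1.954 TPM (log2 -0.26). CD68 was lower, at 39.96 TPM in PC9-AMG against 49.1 TPM in PC9 (log2 -0.29). SLC1A3 was higher in PC9-BrM4, at 4.76 against 0.546 TPM in PC9 (log2 1.90). ALDH1L1, the other astrocyte marker tested, did not pass there, at 15.1 against 17.0 TPM (log2 -0.16). Both SLC1A3 and ALDH1L1 were higher in PC9-AMG than in PC9 (log2 0.345 and 0.62). The median absolute log2 difference between replicates was 0.081 in PC9-AMG, 0.0868 in PC9-BrM4 and 0.0622 in PC9.

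Levels differed widely among the 9 members. A bulk library does not tell more cells with a transcript from more of it per cell. In PC9-AMG the order of mean TPM was CLDN4, CLDN7, CLDN1, TJP1, CLDN12, CLDN3, OCLN and TJP3, where CLDN1 and TJP1 overlapped between libraries. In PC9-BrM4 it was CLDN7, CLDN4, TJP1, CLDN1, CLDN12, CLDN3, OCLN and TJP3, where CLDN12 and CLDN3 overlapped. In PC9 it was CLDN4, CLDN7, TJP1, CLDN12, CLDN1, TJP3, OCLN and CLDN3, where CLDN12 and CLDN1 overlapped. CLDN2 was last in each line. CLDN4 and CLDN7 stood above at least 96.4% of the tested genes in each line, whereas CLDN3 stood above 62.1% in PC9-AMG, 49.7% in PC9-BrM4 and 30.8% in PC9.

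**Figure D1:**
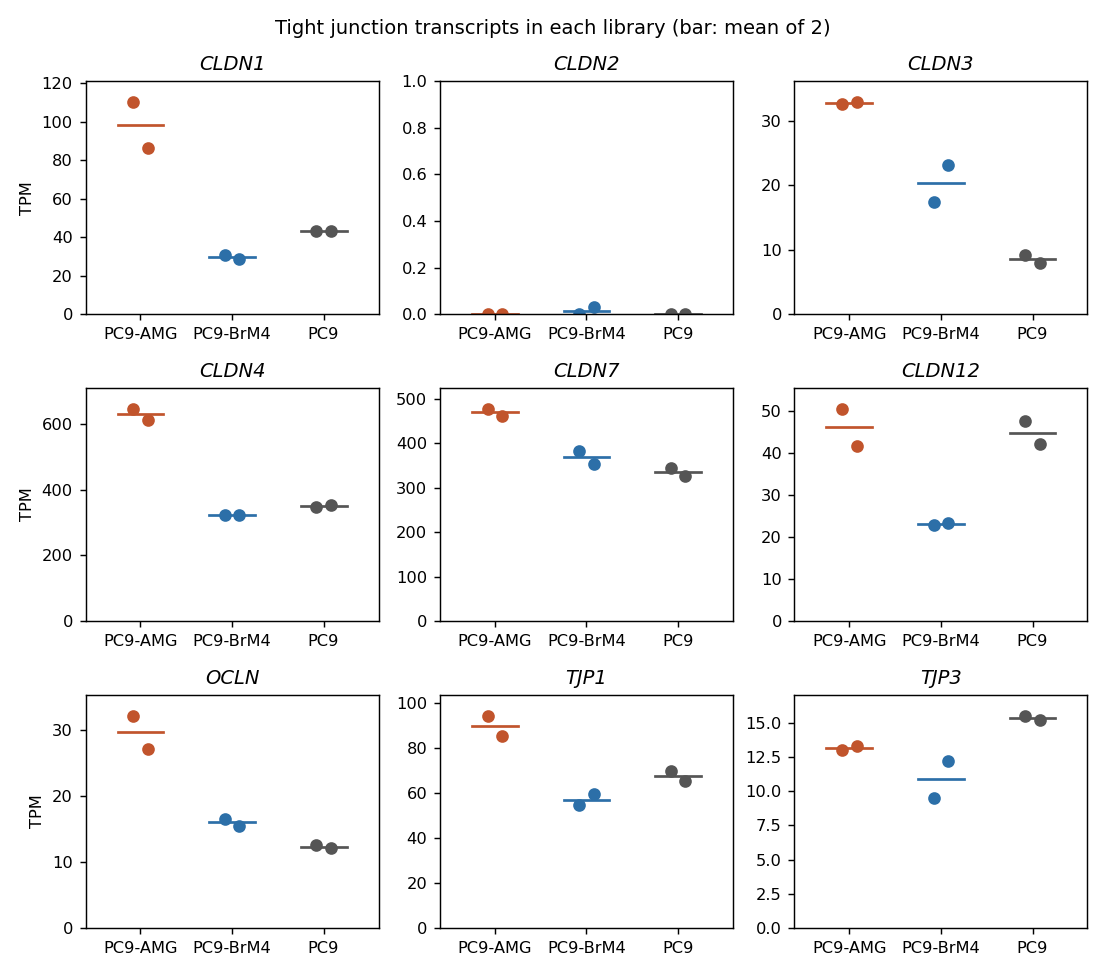
TPM of the 9 members in each of the 2 libraries of PC9-AMG, PC9-BrM4 and PC9 (points), with the mean of the 2 as a bar; each panel has its own linear axis from 0. CLDN1, CLDN3, CLDN4, CLDN7, OCLN and TJP1 are highest in PC9-AMG, CLDN12 is lowest in PC9-BrM4, and CLDN2 stays below 0.1 TPM.

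CLDN4, a barrier-forming claudin and the receptor of a Clostridium toxin (chromosome 7, 73830863 to 73832693, plus strand, hg38), was the most abundant member in PC9-AMG and PC9. It stood at 646 and 614 TPM in PC9-AMG, at 322 and 323 TPM in PC9-BrM4, and at 348.0 and 352.7 TPM in PC9. The 2 PC9-AMG libraries lay far above the other 4, and those of PC9-BrM4 lay just below those of PC9. The log2 fold change was 0.845 ± 0.040 (SE) for PC9-AMG against PC9 (limma adjusted p = 8.54e-06) and 0.96 ± 0.040 for PC9-AMG against PC9-BrM4 (limma adjusted p = 2.66e-06). For PC9-BrM4 against PC9 it was -0.12, with a 95% interval of -0.21 to -0.03 and a limma adjusted p = 0.0442. That call ended in 9 of 14 other settings, including each setting that left out 1 PC9 or PC9-BrM4 library (log2 -0.13 to -0.11; limma adjusted p 0.016 to 0.577 over all settings).

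CLDN3, which shares with CLDN4 the same toxin-receptor role, lies 60.6 kb from it on the opposite strand (chromosome 7, 73768997 to 73770270). GENCODE 29 gives its transcript 1 exon. It stood at 32.5 and 32.9 TPM in PC9-AMG, 17.4 and 23.1 TPM in PC9-BrM4, and 9.23 and 7.98 TPM in PC9. The 3 lines did not overlap, with PC9-AMG highest and PC9 lowest. The log2 fold change was 1.81 ± 0.13 (SE) for PC9-AMG against PC9, the largest among the members in that comparison (limma adjusted p = 3.88e-05). For PC9-BrM4 against PC9 it was 1.14 ± 0.13 (limma adjusted p = 0.000345), and for PC9-AMG against PC9-BrM4 0.68 ± 0.13 (limma adjusted p = 0.00288). Both CLDN3 and CLDN4 rose in PC9-AMG, whereas in PC9-BrM4 CLDN3 rose and the CLDN4 call, of the opposite sign, depended on the setting. The CLDN4 to CLDN3 ratio, in TPM within a library, was 19.9 and 18.7 in PC9-AMG, with 18.5 and 14.0 in PC9-BrM4 but 37.7 and 44.2 in PC9.

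CLDN7, a claudin that also lies along the lateral membrane and binds EPCAM (chromosome 17, 7259903 to 7263193, minus strand), varied least among the abundant claudins. It stood at 477 and 462 TPM in PC9-AMG, 383 and 353 TPM in PC9-BrM4, and 345 and 327 TPM in PC9. The PC9-AMG libraries lay above the other 4. Its log2 fold change was 0.48 ± 0.052 (SE) for PC9-AMG against PC9 (limma adjusted p = 0.000225), 0.13 ± 0.052 for PC9-BrM4 against PC9 (limma adjusted p = 0.0725) and 0.35 ± 0.052 for PC9-AMG against PC9-BrM4 (limma adjusted p = 0.000897). The value for PC9-BrM4 against PC9 ranged from log2 0.073 without PC9-BrM4 replicate 1 (limma adjusted p = 0.299) to 0.19 without PC9-BrM4 replicate 2, where it passed (limma adjusted p = 0.0352). It also passed with the replicate number as a block (limma adjusted p = 0.0441), within 0.0352 to 0.329 over its alternatives. The last bases of CLDN7 overlap ELP5 on the other strand.

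CLDN1, a barrier claudin essential for the skin seal in mice (chromosome 3, 190305701 to 190322446, minus strand), moved in opposite directions in the sublines. It stood at 110.2 and 86.2 TPM in PC9-AMG, at 30.75 and 28.8 TPM in PC9-BrM4, and at 43.2 and 43.4 TPM in PC9. PC9-AMG was highest and PC9-BrM4 lowest, with no overlap, and the PC9-AMG libraries were the farthest apart. The log2 fold change was 1.15 ± 0.10 (SE) for PC9-AMG against PC9 and -0.53 ± 0.10 for PC9-BrM4 against PC9 (limma adjusted p = 0.000107 and 0.00495). Set directly against each other, PC9-AMG and PC9-BrM4 differed by 1.68 on the log2 scale, with a 95% interval of 1.44 to 1.92 (limma adjusted p = 1.46e-05). This was the largest difference among the members in that comparison.

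CLDN12, an atypical claudin that lacks the usual scaffold-binding tail (chromosome 7, 90403334 to 90415954, plus strand), was lower in PC9-BrM4. It stood at 50.4 and 41.7 TPM in PC9-AMG, at 22.9 and 23.2 TPM in PC9-BrM4, and at 47.5 and 42.1 TPM in PC9. The PC9-AMG and PC9 libraries overlapped, and those of PC9-BrM4 lay at about 0.515 of the PC9 mean. The log2 fold change was 0.035 for PC9-AMG against PC9, with a 95% interval of -0.19 to 0.26 (limma adjusted p = 0.776), and its sign changed in 3 other settings. It was -0.93 ± 0.096 (SE) for PC9-BrM4 against PC9 (limma adjusted p = 0.000261) and 0.96 ± 0.096 for PC9-AMG against PC9-BrM4 (limma adjusted p = 0.000129). CLDN12 lies in a stretch of chromosome 7 where other genes were lower too. Of the 40 other tested genes within 5 Mb, 5.0% had a log2 fold change above 0 in PC9-BrM4 against PC9, called or not. Of the same 40, 31 were called lower, where 23.1% of all tested genes were, and the median log2 fold change was -0.44. With that median subtracted, the CLDN12 value was -0.48 (limma adjusted p = 0.00564, with the median taken as exact). In PC9-AMG the median of the same genes was -0.20.

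CLDN2, the pore-forming claudin of leaky epithelia (chromosome X, 106900164 to 106930861), was listed at 0 in 5 libraries and at 0.0315 TPM in PC9-BrM4 replicate 2. It was the only member below the filter of 1 TPM in at least 2 libraries and was not tested.

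Occludin was higher in both sublines, and its annotated copy bears on the value. OCLN, a membrane protein that helps regulate junction assembly (chromosome 5, 69492292 to 69558104, plus strand), stood at 32.2 and 27.2 TPM in PC9-AMG, 16.55 and 15.5 TPM in PC9-BrM4, and 12.6 and 12.1 TPM in PC9. The 3 lines did not overlap, with PC9-AMG highest. The log2 fold change was 1.20 ± 0.089 (SE) for PC9-AMG against PC9 (limma adjusted p = 4.76e-05), 0.35 ± 0.089 for PC9-BrM4 against PC9 (limma adjusted p = 0.0144) and 0.85 ± 0.089 for PC9-AMG against PC9-BrM4 (limma adjusted p = 0.000173).

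OCLNP1, annotated as an unprocessed pseudogene of OCLN (chromosome 5, 71074225 to 71093193 in GENCODE 29), has 2 lines in each library. Their TPM was added under the name LOC647859, and the places these lines cover are not given here. OCLNP1 so stood at 38.5 and 31.8 TPM in PC9-AMG, 15.1 and 18.8 TPM in PC9-BrM4, and 12.5 and 16.9 TPM in PC9. OCLN took 45.5% and 46.1% of the sum of both in PC9-AMG, 52.3% and 45.3% in PC9-BrM4, with 50.2% and 41.7% in PC9. Reads of similar copies can be split between them, so the level of OCLN is uncertain. With both added, the log2 fold change was 1.23 for PC9-AMG against PC9 (limma adjusted p = 7.25e-05) and 0.95 for PC9-AMG against PC9-BrM4 (limma adjusted p = 0.000182). For PC9-BrM4 against PC9 it was 0.28 and no longer passed (limma adjusted p = 0.0548, within 0.0102 to 0.0744 over the alternatives). Leaving out PC9 replicate 2 or PC9-BrM4 replicate 1 ended that call too (limma adjusted p = 0.0741 and 0.0744).

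The scaffold genes differed from each other. TJP1, which encodes ZO-1, the main link from claudins to actin (chromosome 15, 29699367 to 29968799, minus strand), stood at 94.35 and 85.5 TPM in PC9-AMG, 54.6 and 59.5 TPM in PC9-BrM4, and 69.7 and 65.4 TPM in PC9. PC9-AMG was highest and PC9-BrM4 lowest, without overlap. Its log2 fold change was 0.41 ± 0.069 (SE) for PC9-AMG against PC9 (limma adjusted p = 0.00187) and 0.65 ± 0.069 for PC9-AMG against PC9-BrM4 (limma adjusted p = 0.000178). For PC9-BrM4 against PC9 it was -0.24 (limma adjusted p = 0.0234), a call that ended in 5 of 14 other settings, among them those without PC9 replicate 1 (0.136) and PC9-BrM4 replicate 1 (0.118). A second TJP1 line on an alternate sequence was at 0 TPM in each library.

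TJP3, which encodes the epithelial scaffold ZO-3 (chromosome 19, 3708337 to 3750813, plus strand), was highest in PC9. It stood at 13.0 and 13.3 TPM in PC9-AMG, 9.48 and 12.2 TPM in PC9-BrM4, and 15.5 and 15.2 TPM in PC9. The lines did not overlap, but the PC9-BrM4 libraries were well apart. Its log2 fold change was -0.21, with a 95% interval of -0.47 to 0.05, for PC9-AMG against PC9 (limma adjusted p = 0.143) and -0.47 ± 0.11 (SE) for PC9-BrM4 against PC9 (limma adjusted p = 0.0101). Without PC9-BrM4 replicate 1 the value for PC9-BrM4 against PC9 was -0.31 (limma adjusted p = 0.0252). For PC9-AMG against PC9-BrM4 it was 0.265 (limma adjusted p = 0.0741), which passed without PC9-BrM4 replicate 2 (log2 0.43, limma adjusted p = 0.00661) and was 0.096 without PC9-BrM4 replicate 1 (limma adjusted p = 0.333). The TJP1 to TJP3 ratio in TPM was 7.26 and 6.42 in PC9-AMG, with 5.755 and 4.86 in PC9-BrM4 and a lower 4.49 and 4.30 in PC9. TJP3 overlaps the last bases of APBA3 on the other strand.

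**Figure D2:**
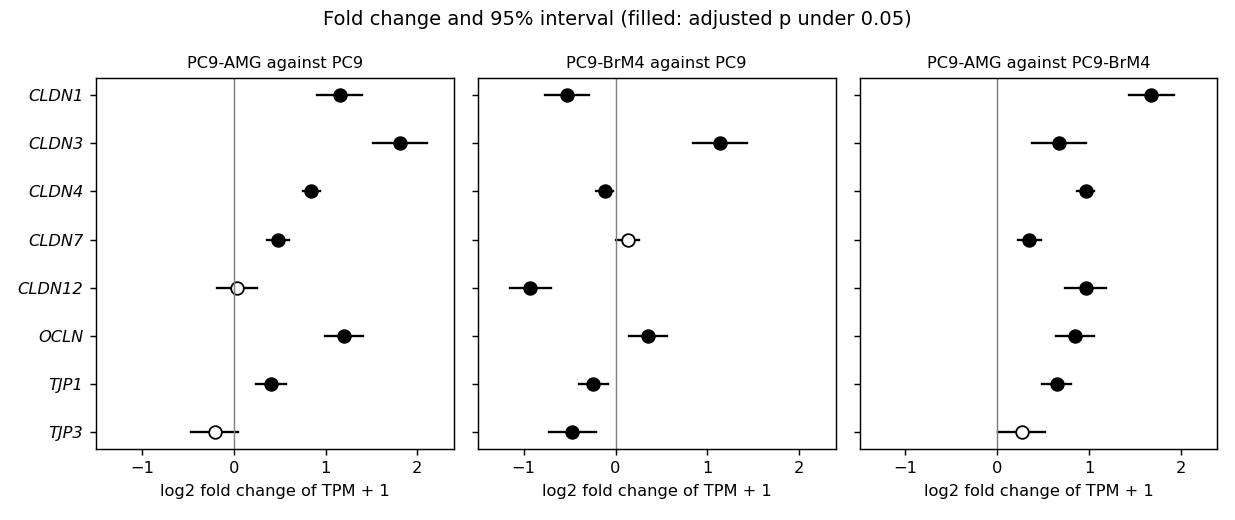
Log2 fold change of TPM + 1 (point) with its 95% interval from limma (line) for the 8 tested members in each comparison; filled points have an adjusted p under 0.05. Against PC9, 6 members are higher in PC9-AMG and 0 lower, whereas in PC9-BrM4 2 are higher and 5 lower.

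Counted together, the members shifted upward in PC9-AMG and split in PC9-BrM4. Of the 8 tested members, 6 were higher in PC9-AMG than in PC9 and 0 were lower, where 27.8% of 14195 tested genes were called higher and 27.7% lower (55.5% in all). The median log2 fold change was 0.66 over the members and -0.006 over all tested genes. Of the members, 4 were called higher by at least 0.5 on the log2 scale, a size reached by 11.7% of all tested genes. Against PC9-BrM4, 7 of 8 members were higher in PC9-AMG and 0 lower (28.1% and 28.0% of all tested genes, 56.1% in all), with a median of 0.76, and 6 were called higher by at least 0.5 (13.0% of all tested genes). In PC9-BrM4 against PC9, 2 were higher and 5 lower (23.4% and 23.1% of all tested genes, 46.6% in all), with a median of -0.18, and 1 was called higher by at least 0.5 (7.46%). Without PC9-BrM4 replicate 1 the called members there were 4, of which 1 was higher and 3 lower. Both sublines were set against the same PC9 libraries, so these counts are not independent. The members were also chosen with earlier results of these data known, so the counts are no test of the set. The libraries of PC9-BrM4 and PC9 did not overlap for 8 of 8 members, and those of PC9-AMG and PC9 for 7 of 8, where 75.2% and 79.8% of all tested genes did not overlap. Those of PC9-AMG and PC9-BrM4 did not overlap for 8 of 8 members, against 77.5% of all tested genes.

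The summed claudin level was higher in PC9-AMG, and CLDN4 and CLDN7 made up most of it in each line. The summed TPM of the 24 claudin genes in the tables was 1353 and 1274 TPM in PC9-AMG, 816 and 795 TPM in PC9-BrM4, and 828 and 809 TPM in PC9. CLDN4 and CLDN7 together made up 83.0% and 84.5% of it in PC9-AMG, 86.4% and 85.1% in PC9-BrM4, with 83.6% and 84.0% in PC9. Within that pair the balance differed, as the CLDN4 to CLDN7 ratio was 1.355 and 1.33 in PC9-AMG, with 0.841 and 0.915 in PC9-BrM4 and a middle 1.01 and 1.08 in PC9. The share of CLDN1 was 8.14% and 6.77% in PC9-AMG, 3.77% and 3.62% in PC9-BrM4, with 5.22% and 5.365% in PC9. CLDN9 rose as the main claudin outside the 6 members, to 29.15 and 30.8 TPM in PC9-BrM4, where PC9 had 21.4 and 22.65 TPM (log2 0.43, limma adjusted p = 0.00154). In PC9-AMG it fell to 18.3 and 19.2 TPM (log2 -0.22 against PC9, limma adjusted p = 0.0219). CLDN23 was higher in PC9-AMG, at 8.65 ± 0.737 TPM against 4.98 ± 0.603 TPM in PC9 (SD, n = 2 each; log2 0.69, limma adjusted p = 0.00138). Of 18 other claudins in the tables, 3 passed the filter.

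**Figure D3:**
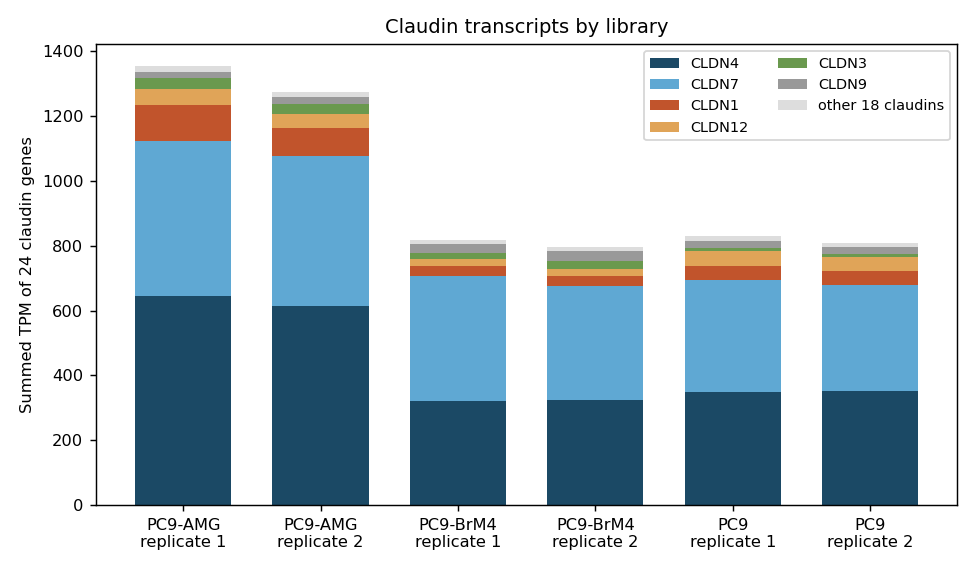
Summed TPM of 24 claudin genes in each library of PC9-AMG, PC9-BrM4 and PC9, stacked by gene on a linear axis from 0. The 2 PC9-AMG libraries reach 1353 and 1274 TPM and the other 4 lie between 795 and 828 TPM, with CLDN4 and CLDN7 forming most of each bar.

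Neighbouring genes were compared because several genes of one chromosome stretch could differ together. Around CLDN4, 66 other genes were tested within 5 Mb, with a median log2 fold change of 0.225 for PC9-AMG against PC9 and -0.15 for PC9-BrM4 against PC9. Of these, 33 were called higher in PC9-AMG and 26 lower in PC9-BrM4, where 27.8% and 23.1% of all tested genes were. With the regional median subtracted and taken as exact, the CLDN4 value was 0.62 in PC9-AMG and 0.03 in PC9-BrM4, of the opposite sign (limma adjusted p = 0.577). The CLDN3 difference between PC9-AMG and PC9-BrM4 shrank to 0.30 in the same way and no longer passed (limma adjusted p = 0.0883). Regional medians around CLDN1, OCLN, CLDN7 and TJP1 lay between -0.12 and 0.085 for PC9-AMG against PC9. Around TJP3 the median was 0.30 in that comparison, and with it subtracted in the same way the TJP3 value was -0.51 and passed (limma adjusted p = 0.00686). Over all tested genes, 27.8% were called higher in PC9-AMG than in PC9 and 27.7% lower. The nearest tested neighbours of members that rose in PC9-AMG, members aside, numbered 10 and lay up to 922.9 kb away. Of these, 0 were called higher, 1 was called lower (HERC2P10, 849.2 kb from TJP1) and 9 did not pass. They include WBSCR27, 1.9 kb from CLDN4 (log2 0.19, limma adjusted p = 0.2835), and MARVELD2, the gene of the tricellular junction protein tricellulin, 50.2 kb from OCLN (log2 -0.10, limma adjusted p = 0.342). In PC9-BrM4, WBSCR27 was lower (log2 -0.76, limma adjusted p = 0.0037), as was CDK14, 180.4 kb from CLDN12 (log2 -0.46, limma adjusted p = 0.000726), whereas GTPBP10, 11.9 kb from CLDN12, did not pass (log2 -0.11, limma adjusted p = 0.274). The part of copy number in these values was not tested.

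**Figure D4:**
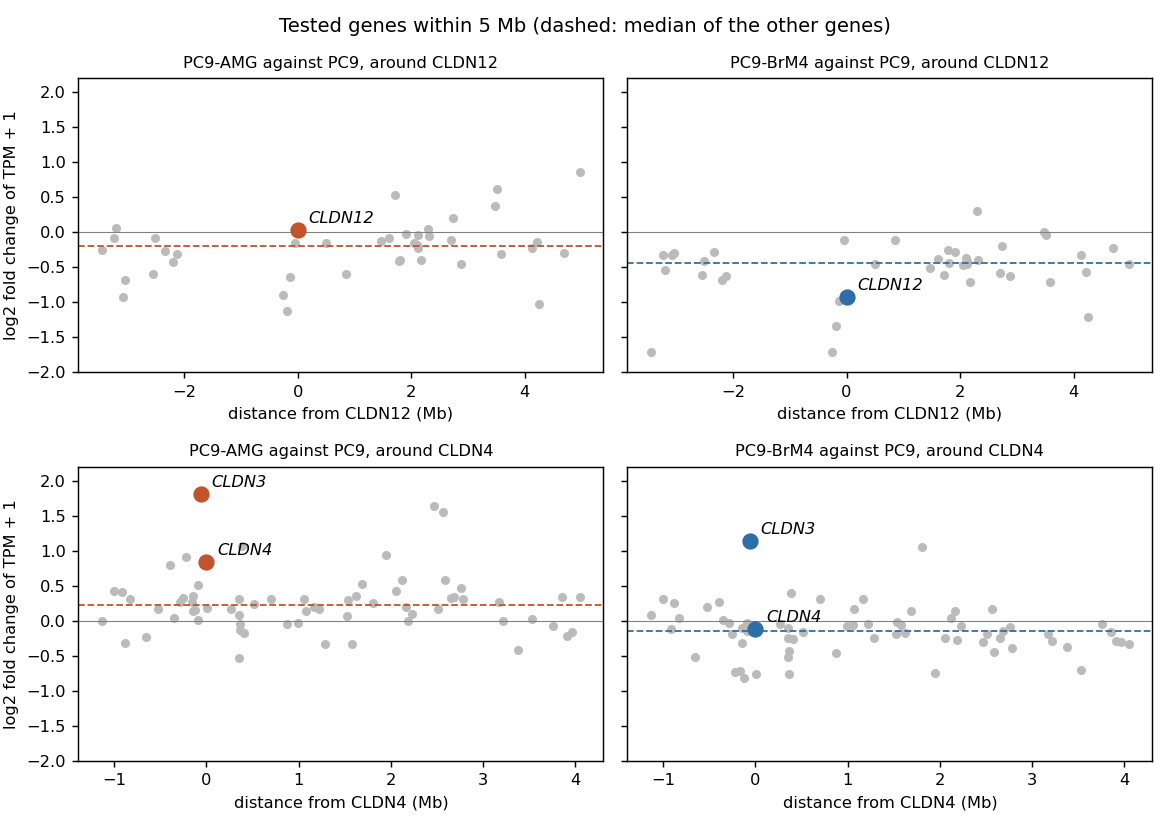
Log2 fold change of TPM + 1 against PC9 for each tested gene within 5 Mb of CLDN12 (top) and CLDN4 (bottom), by distance in Mb, in PC9-AMG (left) and PC9-BrM4 (right); the dashed line is the median of the other genes. Around CLDN12 the PC9-BrM4 median is -0.44, and CLDN12 lies below it at -0.93, while CLDN3 lies above its surroundings in both sublines.

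Other membrane proteins of the tight junction rose in PC9-AMG in 4 of 9 tested genes, with 0 lower (median log2 fold change 0.135), where 27.8% of all tested genes were called higher and 27.7% lower. LSR, the lipoprotein receptor of tricellular contacts, rose to 197 ± 2.55 TPM in PC9-AMG and 155.5 ± 2.26 TPM in PC9-BrM4, where PC9 had 119.8 ± 2.62 TPM (SD, n = 2 each; log2 0.71 and 0.37, limma adjusted p = 1.89e-05 and 0.000327). CRB3, an apical polarity protein, stood at 37.2 ± 2.94 TPM in PC9-AMG and 24.8 ± 1.01 TPM in PC9-BrM4 (log2 0.56, limma adjusted p = 0.000426). CXADR, the coxsackievirus and adenovirus receptor, rose in PC9-BrM4 (log2 0.45 against PC9, limma adjusted p = 0.00302). EPCAM, an epithelial adhesion protein, at 674 ± 9.42 TPM in PC9-AMG, 716 ± 14.1 TPM in PC9-BrM4 and 669 ± 5.75 TPM in PC9, did not pass in any of the 3 comparisons. In PC9-BrM4 2 of the 9 genes rose and 2 fell (median 0.08), a share near that of all tested genes (23.4% and 23.1%).

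Cytoplasmic plaque and polarity genes rose in 12 of 21 tested members in PC9-AMG, with 3 lower (median 0.22), and in 8 in PC9-BrM4, with 1 lower (median 0.13). Over all tested genes 27.8% were called higher and 27.7% lower in PC9-AMG, and 23.4% and 23.1% in PC9-BrM4. ARHGEF2, a RhoA activator held at the junction, rose in PC9-AMG (log2 0.69, limma adjusted p = 0.000182). AMOT, the scaffold angiomotin, fell in PC9-AMG to 19.9 ± 0.99 TPM, against 34.1 ± 1.13 TPM in PC9 (SD, n = 2 each; log2 -0.75, limma adjusted p = 0.000163), and rose in PC9-BrM4 (log2 0.47, limma adjusted p = 0.0019). Its relative AMOTL1 rose in PC9-BrM4 to 63.4 ± 6.26 TPM, against 34.9 ± 0.286 TPM in PC9 (log2 0.84, limma adjusted p = 0.000186), and also in PC9-AMG (log2 0.45, limma adjusted p = 0.00249). The polarity gene PARD6A rose in PC9-BrM4 (log2 0.63, limma adjusted p = 0.00144). PARD6A was lower in PC9-AMG than in PC9-BrM4 (log2 -0.82, limma adjusted p = 0.000274), and so was AMOT (log2 -1.22, limma adjusted p = 1.41e-05).

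Of 16 tested regulators of epithelial junction genes, 6 rose and 7 fell in PC9-AMG (median -0.14), where 27.8% and 27.7% of all tested genes did. In PC9-BrM4 4 rose and 6 fell (median 0.04), where 23.4% and 23.1% of all tested genes did. SNAI2, a repressor of epithelial genes, fell to 7.23 ± 0.142 TPM in PC9-AMG, against 17.3 ± 0.644 TPM in PC9 (SD, n = 2 each; log2 -1.15, limma adjusted p = 2.91e-05), and fell in PC9-BrM4 too (log2 -0.60, limma adjusted p = 0.000603). The epithelial factor KLF4 rose in PC9-AMG (log2 0.64, limma adjusted p = 0.000865). OVOL2, a factor that keeps the epithelial state, fell there by as much (log2 -0.64, limma adjusted p = 0.00016). Of the other genes of this list, EHF, KLF5, ELF3 and GRHL2 fell in PC9-AMG, and GRHL1, GRHL3 and OVOL1 rose. FOXA1, a pioneer factor of endoderm, fell in PC9-BrM4 to 2.79 ± 0.403 TPM, against 20.3 ± 0.013 TPM in PC9 (log2 -2.49, limma adjusted p = 2.86e-06), and fell in PC9-AMG too (log2 -0.525, limma adjusted p = 0.00222). TFAP2A rose in PC9-AMG and in PC9-BrM4 (log2 0.56 and 0.76, limma adjusted p = 0.000238 and 8.46e-05). OVOL2 was also lower in PC9-AMG than in PC9-BrM4 (log2 -0.999, limma adjusted p = 1.61e-05), and FOXA1 was higher (log2 1.97, limma adjusted p = 4.42e-06).

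Of 16 genes of kinases, proteases and ubiquitin ligases that act on junction proteins, 6 were higher and 4 lower in PC9-AMG (median -0.05), and 2 were higher and 5 lower in PC9-BrM4 (median 0.03). Over all tested genes 27.8% and 27.7% were called so in PC9-AMG, and 23.4% and 23.1% in PC9-BrM4. ST14, the membrane protease matriptase, rose to 290 ± 9.51 TPM in PC9-AMG and 209 ± 7.36 TPM in PC9-BrM4, where PC9 had 177 ± 4.17 TPM (SD, n = 2 each; log2 0.705 and 0.24, limma adjusted p = 3.05e-05 and 0.00448). Its partner protease gene PRSS8 rose in PC9-AMG (log2 0.41, limma adjusted p = 0.000835), fell in PC9-BrM4 (log2 -0.245, limma adjusted p = 0.0109) and was higher in PC9-AMG than in PC9-BrM4 (log2 0.65, limma adjusted p = 7.47e-05). EPHA2, a receptor kinase that phosphorylates claudin-4, rose in PC9-AMG (log2 0.48, limma adjusted p = 0.000264). TIAM1, a Rac activator, was lower in PC9-AMG than in PC9-BrM4 (log2 -0.49, limma adjusted p = 0.00388).

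**Figure D5:**
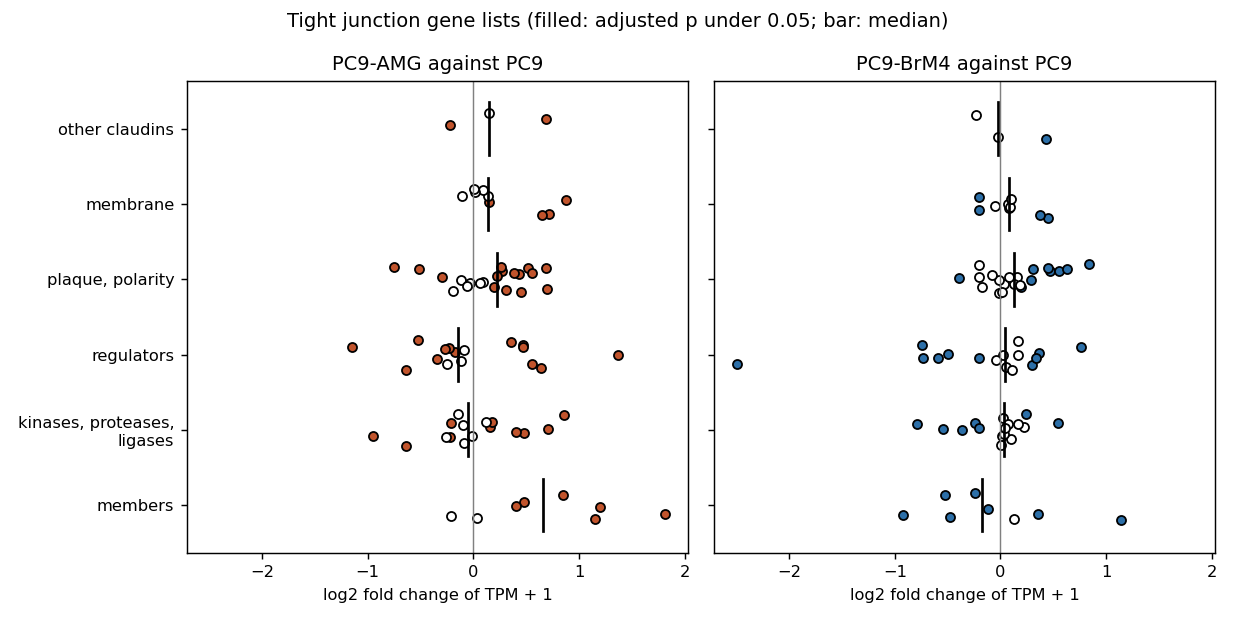
Log2 fold change of TPM + 1 against PC9 for each tested gene of 5 tight junction lists and of the members, in PC9-AMG (left) and PC9-BrM4 (right); filled points have a limma adjusted p under 0.05 and bars are list medians. The member median is 0.66 in PC9-AMG and -0.18 in PC9-BrM4, while the medians of the 5 other lists lie between -0.14 and 0.22.

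Genes of the most similar profile were sought for each member by the Euclidean distance between log2 values over the 6 libraries, each centred on its mean. The distances rest on 6 libraries of 3 lines and carry no test. CLDN4 was nearest to LIMA1 (0.073), MEIS3 and UBE2S, CLDN7 to SNX24 (0.042), HERC6 and BTG3, and CLDN1 to CD55 (0.146), INSL4 and NAV3. CLDN12 was nearest to GDA (0.115), TGFB2 and BTG1, and CLDN3 to MARCH4, at the larger distance of 0.377, NEURL1 and PIP5KL1. OCLN was nearest to ATP6V0A4 (0.119), FAM189A2 and RAB3B, TJP1 to LINC00662 (0.069), ETS2 and SIK1 (uncertain, since it has a near-identical copy), and TJP3 to NOX5 (0.115), CYP2U1 and NXNL2. Among the members the closest pair was CLDN7 and TJP1 (0.433) and the most distant CLDN3 and CLDN12 (2.26). Each tested member lay nearer to 3 other genes than to any other member. Those 3 were picked from 14195 tested genes and the members were only 8, so this does not tell whether members resemble each other. CD55, which encodes a complement regulator of the cell surface, stood at 82.2 and 71.0 TPM in PC9-AMG, 22.8 and 21.5 TPM in PC9-BrM4, and 35.4 and 34.1 TPM in PC9, the same order of lines as CLDN1.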

How the data were processed

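RNA was taken up in TRIzol and sequenced from TruSeq Stranded mRNA libraries, per the labels' protocols. The authors deposited per-library tables of TPM, FPKM and coverage (a signal per base), per the file headers. Per the submitters' processing notes, the tools were HISAT2 2.1.0, StringTie 1.3.4d and bcl2fastq, with build hg38. No source used here gives the annotation release or strand setting. Tables of PC9-AMG are named EMG, unlike the titles of those samples, and were assigned by the sample records that list them. A series table with 6 value columns was not used, because its column names have the same mismatch and no sample record ties them. The aligned gigabases are the median ratio of deposited coverage to FPKM, and read counts are not known, so no counting interval is given.

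TPM of one symbol was summed, and log2(TPM + 1) was fitted with limma 3.58.1 (R 4.3.3, mean-variance trend) over all 6 libraries with 1 mean per line, which left 3 residual degrees of freedom. The 14195 genes with at least 1 TPM in at least 2 libraries were tested. A gene was called at a Benjamini-Hochberg adjusted p under 0.05, and "rose" or "fell" means called. Fold changes on this scale understate those of low genes, and TPM is relative within a library. Figures used Python 3.11.15. The members and gene lists were chosen with earlier results of these data known. Named genes are the members, the 2 called genes with the largest change per list and comparison at a mean of at least 5 TPM, nearest tested neighbours and the 3 genes of most similar profile per member. Some further genes of the lists are named beside these, and others are counted but not reported by name here. Alternatives changed the pseudocount, filter, block, samples, trend, unit, scaling or region, or left out 1 library. With a regional median removed, the p-value kept the SE of the limma fit and left out the spread of the neighbouring genes.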

Additional observations from a re-analysis of the deposited data

How the results depend on the processing

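Of the members' log2 fold changes under other settings, 311 kept their direction and side of the threshold, 17 lost the call, 7 gained one and 4 changed sign. These were CLDN4 in PC9-BrM4 against PC9, at 0.0307 with the regional median removed, and CLDN12 in PC9-AMG against PC9, never called, at -0.0012 with quantile normalization, -0.049 without PC9 replicate 2 and -0.099 without PC9-AMG replicate 1 (-0.099 to 0.169 with 1 library left out). The number of members called was 6 to 7 of 8 for PC9-AMG against PC9 and 7 to 8 for PC9-AMG against PC9-BrM4 over the alternatives. For PC9-BrM4 against PC9 it was 7, but 5 with no filter, 5 with no mean-variance trend, 6 with median-ratio rescaling, and 4 to 7 with 1 library left out, the 4 without PC9-BrM4 replicate 1; a lone library was assumed to vary like the other lines. Genes called over the table ranged from 6013 to 8262 (PC9-AMG against PC9), 6499 to 8275 (PC9-AMG against PC9-BrM4) and 4604 to 6773 (PC9-BrM4 against PC9). The replicate numbers share only a number: deviations of same-numbered libraries correlated at -0.028, -0.063 and -0.069. With the replicate block, 6, 7 and 7 members were called in the same order of comparisons, among them CLDN7 (log2 0.13, limma adjusted p = 0.0441) and not CLDN4 (-0.12, limma adjusted p = 0.0699) for PC9-BrM4 against PC9. Adding OCLNP1 to OCLN was chosen after seeing the data. The cause of lost calls was not tested. With 2 libraries per line, differences near those between replicates were not detectable.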
